A study of Homo sapiens with 3 samples.

Results

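Genes that carry copper or organic cations, and with them platinum drugs, were followed in YB5 cells that received decitabine, carboplatin or their combination. The 7 genes were SLC31A1, SLC31A2, ATP7A, ATP7B, ATOX1, SLC22A2 and SLC22A3, and their probes were found by gene name in the scanner files. They had 11 probes of 41000 on the array, and stand beside 18615 genes that could be matched to a probe. All 11 probes were used on every array, and the 3 that lay in columns 1 to 9 of the array are given apart. These were the only ATOX1 probe and 2 of the 4 SLC31A1 probes.

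Copper enters human cells through SLC31A1 (CTR1), a trimeric pore in the plasma membrane, and its relative SLC31A2 (CTR2) lies mainly on internal vesicles and is held to regulate copper stores. The chaperone ATOX1 takes copper in the cytosol and hands it to ATP7A and ATP7B, a pair of copper pumps that load secreted enzymes in the Golgi and expel excess copper. SLC22A2 (OCT2, of the kidney) and SLC22A3 (OCT3) carry organic cations into cells. All of these proteins have been studied as routes by which cisplatin and related drugs enter, move through or leave cells, although how much carboplatin each one carries is less certain.

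YB5 is a clonal line from SW48 colon cancer cells, with 1 inserted copy of a GFP reporter whose CMV promoter is silenced by CpG methylation, so every value comes from 1 clone. Decitabine, which blocks DNA methyltransferases, was given at 25 nM, and carboplatin, which crosslinks DNA, at 20 µM by the sample labels. Drugs were given in 4 daily doses on days 1 to 4, and cells were harvested on day 6. RNA of treated cells carried Cy3 and RNA of control cells, which received the solvent DMSO, carried Cy5, on 3 two-colour arrays of 1 slide, 1 array for each treatment and with no dye swap. The array labels give no replicates, so no test was possible and no p-value is given.

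The arrays were called by their labels throughout, as the decitabine-labelled, carboplatin-labelled and both-drug arrays, and values given as triplets keep this order. The arrays read RNA of bulk cultures, in which fewer cells of a type and less RNA per cell cannot be told apart. The study lists 53 genes of cell division, the cell cycle or DNA replication as lowered by carboplatin in these same data. Of these, 40, 4 and 37 were at least 1.5-fold lower here, against 4.67, 1.49 and 5.93% of all genes. Because the list was picked from these data, the counts serve only to check the labels. They go against the labels of the single-drug arrays, and no array was reassigned here. A dim control channel set columns 1 to 9 of the decitabine-labelled array apart. Their control level lay −0.90 from that of the other arrays on the log2 scale, their treated level 0.03, and their median log2 change was 0.75. Among 264 probes spotted 10 times, the pooled SD of a log2 change was 0.0776, 0.0748 and 0.0757 outside these columns, and 0.230 on the decitabine-labelled array with them. The control was well above background for 68.2 to 70.3% of 43376 gene spots. Of 10 colon epithelium markers, 7 to 9 were well above background in the control channel, CDX1 on no array. Of 15 markers of other cell types, 5 or 6 were, among them COL1A1, VWF, ALB and UMOD on every array, while COL1A2 and PTPRC were not well above background on any. The changes of those 15 markers ran from −0.40 to 0.37, from −0.19 to 0.61 and from −0.29 to 0.55, and their part in the results below was not tested.

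The probes on which the results turn are shown first. SLC31A1 was the only member read by 4 probes, 2 inside and 2 outside columns 1 to 9, so the same gene was read at different places of the array. They lie on chromosome 9 (GRCh37, forward strand), over 5.18 kb of SLC31A1. The bases are written in lower case 5′ to 3′, whole for the probe in column 50 and as the first 30 of 60 bases for the others.
SLC31A1 A_24_P321068, column 50, chr9:116020983-116021042: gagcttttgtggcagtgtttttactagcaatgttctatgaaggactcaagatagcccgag
SLC31A1 A_23_P253405, column 2, chr9:116022897-116022956: gctcaacagaggtttagtttacagtctctg
SLC31A1 A_24_P252667, column 6, chr9:116023019-116023078: tctccatcatcttagagccaagttatatgt
SLC31A1 A_24_P928901, column 61, chr9:116026107-116026166: ccactaggagattagaaattaaggtttctt
ATOX1 and SLC31A2 had 1 probe each, and they were the 2 members past 1.5-fold by their brightest probe.
ATOX1 A_23_P144877, column 7, chr5:151125870-151125929, reverse strand: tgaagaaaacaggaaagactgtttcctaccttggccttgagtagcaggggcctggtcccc
SLC31A2 A_23_P217109, column 15, chr9:115926240-115926299, forward strand, first 30 bases: cattttttgagttagatgggactctctgga
The SLC31A2 probe lies 94.7 kb from the nearest SLC31A1 probe, with both genes on the long arm of that chromosome.

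Decitabine acts on CpG methylation, so the sequences just upstream of the start sites are shown for an expressed uptake gene, SLC31A1, the chaperone gene ATOX1 and a gene without signal, SLC22A2. RefSeq (GRCh38.p14) held start sites for 5 of the 7 members, SLC31A2 and SLC22A3 not among them. Each line gives the 250 bases before the start, 5′ to 3′ on the strand of the gene, with CG pairs in capitals.
SLC31A1, chr9:113221294-113221543, forward strand: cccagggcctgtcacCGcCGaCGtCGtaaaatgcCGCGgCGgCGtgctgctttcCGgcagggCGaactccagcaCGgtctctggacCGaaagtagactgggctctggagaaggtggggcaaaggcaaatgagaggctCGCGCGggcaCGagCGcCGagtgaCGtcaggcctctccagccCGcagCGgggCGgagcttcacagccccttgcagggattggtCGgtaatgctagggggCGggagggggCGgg
ATOX1, chr5:151758632-151758881, reverse strand: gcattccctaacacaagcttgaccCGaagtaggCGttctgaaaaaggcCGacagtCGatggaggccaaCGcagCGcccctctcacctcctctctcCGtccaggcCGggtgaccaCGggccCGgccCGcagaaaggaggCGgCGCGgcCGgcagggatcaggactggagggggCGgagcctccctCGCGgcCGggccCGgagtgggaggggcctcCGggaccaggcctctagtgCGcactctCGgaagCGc
SLC22A2, chr6:160258822-160259071, reverse strand: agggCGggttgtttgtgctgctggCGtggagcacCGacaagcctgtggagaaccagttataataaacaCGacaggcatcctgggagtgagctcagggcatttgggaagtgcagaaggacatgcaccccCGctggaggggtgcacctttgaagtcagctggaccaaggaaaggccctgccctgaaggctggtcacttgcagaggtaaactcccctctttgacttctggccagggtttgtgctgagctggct
SLC31A1 held 25 CG pairs, ATOX1 24 and SLC22A2 5, against a median of 11 over 35116 windows of the same length. ATP7A held 20, and the 3 ATP7B start sites held 20, 24 and 2. The GC box GGGCGG was found on either strand 3 times for SLC31A1, 3 times at each of 2 ATP7B start sites, once each for ATOX1 and SLC22A2 and at no place for ATP7A or the other ATP7B site, a motif that holds a CG pair itself and that 42.6% of all windows hold. The core of the metal response element, TGCACNC or TGCGCNC on either strand, was found at 1 place for ATOX1, at 2 for SLC22A2 and for 1 of the 3 ATP7B start sites, and at none for SLC31A1 or ATP7A, with overlapping matches counted once, and 24.8% of all windows hold it. Methylation of these windows was not analysed here.

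The 5 members SLC31A1, SLC31A2, ATP7A, ATP7B and ATOX1 were well above background in both channels of every array. SLC22A2 and SLC22A3 were not. With each gene read by its brightest probe, SLC31A2 and ATOX1 were at least 1.5-fold higher in treated cells on the decitabine-labelled array, 2 of 7 members against 10.6% of all genes. Without columns 1 to 9 ATOX1 has no probe, SLC31A2 was the 1 member past 1.5-fold on this array, and 5.08% of all genes were higher and 4.9% lower. No member was that much higher on the carboplatin-labelled array, against 2.76% of all genes. SLC31A2 and ATOX1 were again the 2 members past 1.5-fold on the both-drug array, against 7.47% of all genes. No member was at least 1.5-fold lower on any array, where 4.67, 1.49 and 5.93% of all genes were. Over all 11 probes the median log2 change was 0.09, 0.02 and −0.05, beside 0.01, −0.01 and 0.00 over all genes. Over the 8 probes outside columns 1 to 9 it was 0.02, 0.03 and −0.07, and over the 3 probes inside it was 1.05, 0.02 and −0.03.

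**Figure D1:**
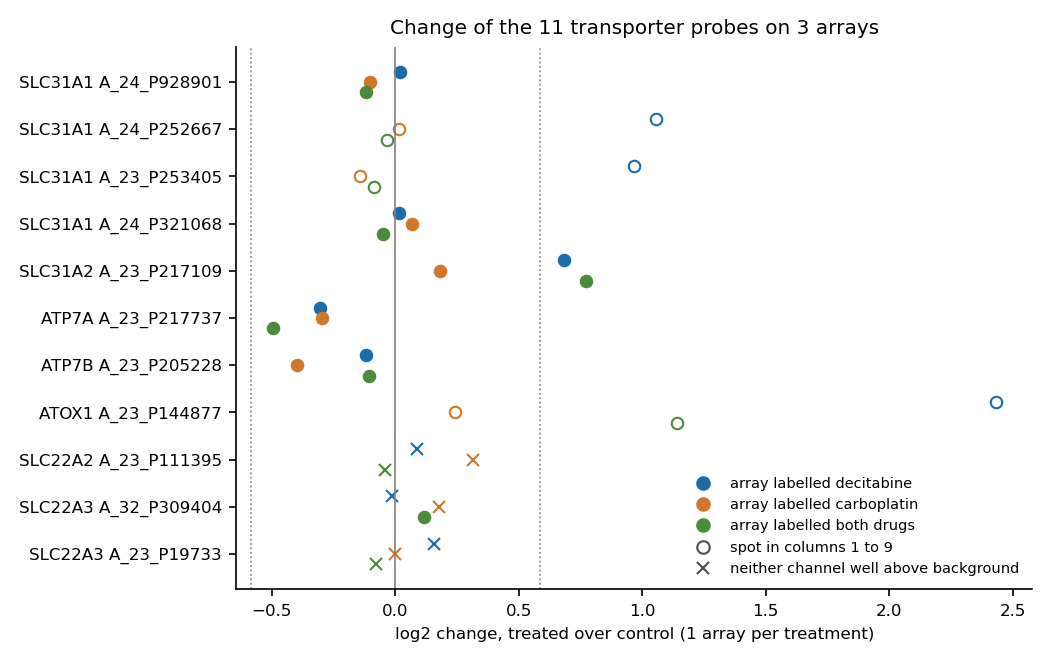
Log2 change (treated over control) of the 11 probes of the 7 genes on the 3 arrays, 1 point per probe and array. Open points lie in columns 1 to 9, crosses mark spots with neither channel well above background, and dotted lines mark 1.5-fold. ATOX1 and SLC31A2 lie right of the line on the decitabine-labelled and both-drug arrays, and the open SLC31A1 points do so only on the decitabine-labelled array.

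SLC31A1, the main copper importer, was close to its control level on the arrays where its 4 probes could be compared. Its brightest probe, A_24_P928901, had control levels of 9.57, 9.32 and 9.49 and treated levels of 9.59, 9.22 and 9.37 on the log2 scale. The log2 changes were thus 0.02, −0.10 and −0.12. The second probe outside columns 1 to 9, A_24_P321068, gave 0.02, 0.07 and −0.05. Both probes put treated and control cells within a log2 distance of 0.12 of each other on every array.

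The probes A_24_P252667 and A_23_P253405 in columns 6 and 2 gave log2 changes of 1.05 and 0.96 on the decitabine-labelled array. They gave 0.02 and −0.14 on the carboplatin-labelled array, and −0.03 and −0.09 with both drugs. Their treated levels were alike across arrays, 9.17, 9.06 and 9.001 for the former and 8.85, 8.78 and 8.71 for the latter. Their control levels were not, and stood at 8.11 against 9.04 and 9.03, and at 7.89 against 8.92 and 8.80. The spots around them on the decitabine-labelled array had median changes of 0.68 and 0.77. Set against the mean control of the carboplatin-labelled and both-drug arrays, their changes on that array were 0.13 and −0.01. The 4 probes differed by an SD of 0.573, 0.0979 and 0.0381 on the 3 arrays.

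**Figure D2:**
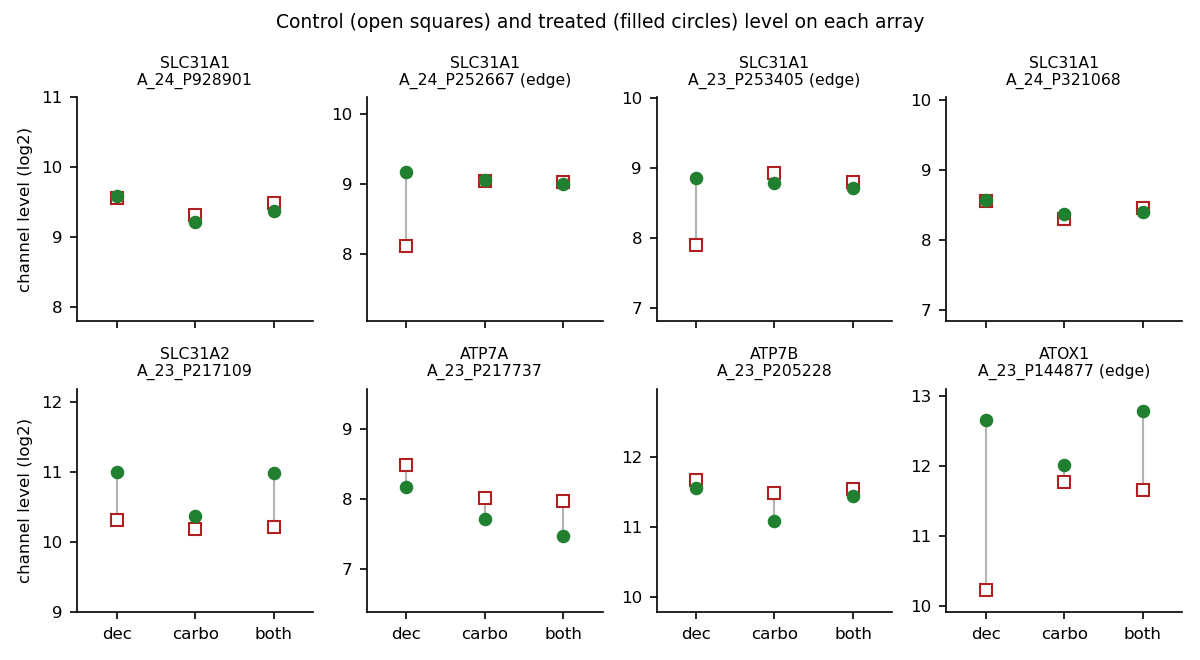
Level of the control (open squares) and treated (filled circles) channel on the log2 scale, after scaling between arrays, for the 8 probes of the 5 detected members. The decitabine-labelled (dec), carboplatin-labelled (carbo) and both-drug (both) arrays are side by side in each panel, and every panel spans the same range. In the 3 panels marked edge (columns 1 to 9) the control square of the decitabine-labelled array lies below those of the other arrays.

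SLC31A2, the vesicular relative of CTR1, was higher in treated cells on the decitabine-labelled and both-drug arrays. Its probe lay outside columns 1 to 9 and read control levels of 10.32, 10.20 and 10.21 (SD 0.0659, n = 3 control channels). The treated levels were 11.002, 10.38 and 10.98. The treated channels of the decitabine-labelled and both-drug arrays lay close together and above all 3 control channels, while that of the carboplatin-labelled array lay just above the highest control. The changes were 0.68, 0.18 and 0.77 on the log2 scale, or 1.61-fold, 1.13-fold and 1.71-fold. With the shared control they were 0.80, 0.17 and 0.78. SLC31A2 passed 1.5-fold under 8 of 11 settings on the decitabine-labelled array, but not with the processed signals or the scanner log ratio (0.52 each) or with median centring (0.17), and under 10 of 11 with both drugs, the exception being median centring (0.35). The pooled SD of repeated spots, 0.0748 to 0.0776 outside the edge columns, is smaller than each of these but covers spots of 1 array only. The change with both drugs exceeded that on the carboplatin-labelled array by 0.59 and that on the decitabine-labelled array by 0.09, and the log2 changes of the single-drug arrays summed to 0.86.

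Among genes read well above background in both channels, SLC31A2 stood higher than 87.4% of 13092 genes on the decitabine-labelled array, 74.7% of 13591 on the carboplatin-labelled array and 94.1% of 13398 with both drugs. The 13092 genes include those read in columns 1 to 9, where the median change of spots was 0.75. The rank on that array is therefore not comparable with the ranks on the other arrays. The genes with the most similar changes over the 3 arrays were TAFA2, WNT7B and B3GALT6, at distances of 0.016 to 0.029 on the log2 scale. This pattern was common, as 209 of 11621 genes lay within 0.25 of it.

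ATOX1, the copper chaperone of the cytosol, showed the largest values of the 7 genes on the decitabine-labelled and both-drug arrays, but its only probe lay in column 7. Its mean signals in treated cells were 4375, 2704 and 4778.5 scanner units. The mean signals in control cells were 1822, 5442 and 4439. After scaling, the treated levels were 12.65, 12.01 and 12.79 and the control levels 10.22, 11.77 and 11.65 on the log2 scale. The treated cells of all 3 arrays lay above every control channel, and the decitabine-labelled array had a control channel apart from the other 2. The log2 changes were 2.43, 0.24 and 1.14, or 5.39-fold, 1.18-fold and 2.20-fold.

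The both-drug array had no dim columns, and there ATOX1 stood 1.15 above the median of 199 neighbouring spots, whose 5th and 95th percentiles were −0.60 and 0.68. On the decitabine-labelled array the neighbouring spots had a median of 0.88 and 5th and 95th percentiles of −0.01 and 1.98, so ATOX1 stood 1.55 above that median. With the mean control of the carboplatin-labelled and both-drug arrays in place of each array's own, its log2 changes were 0.94, 0.30 and 1.08. ATOX1 was past 1.5-fold on the decitabine-labelled and both-drug arrays under all 10 settings that gave it a value. These settings include the main one and are not independent. Keeping only spots well above background repeated the main values, and the processed signals and scanner log ratio both gave 1.57 on the decitabine-labelled array. There, all but the shared control (0.94) and the authors' table (1.26) used that array's own dim control. Without columns 1 to 9 ATOX1 had no value, so the count of settings is no separate evidence. The change of ATOX1 on the decitabine-labelled array ranged from 0.94 to 2.47 over these settings. On the carboplatin-labelled array it passed 1.5-fold in the authors' table alone (0.77), and it ran down to −0.24 with median centring. The order of these 2 arrays was not settled, because the change with both drugs minus that on the decitabine-labelled array was −1.29 as computed but 0.14 with the shared control. The sum of the single-drug changes was 2.67 with each array's own control and 1.25 with the shared control, against 1.14 and 1.08 with both drugs.

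**Figure D3:**
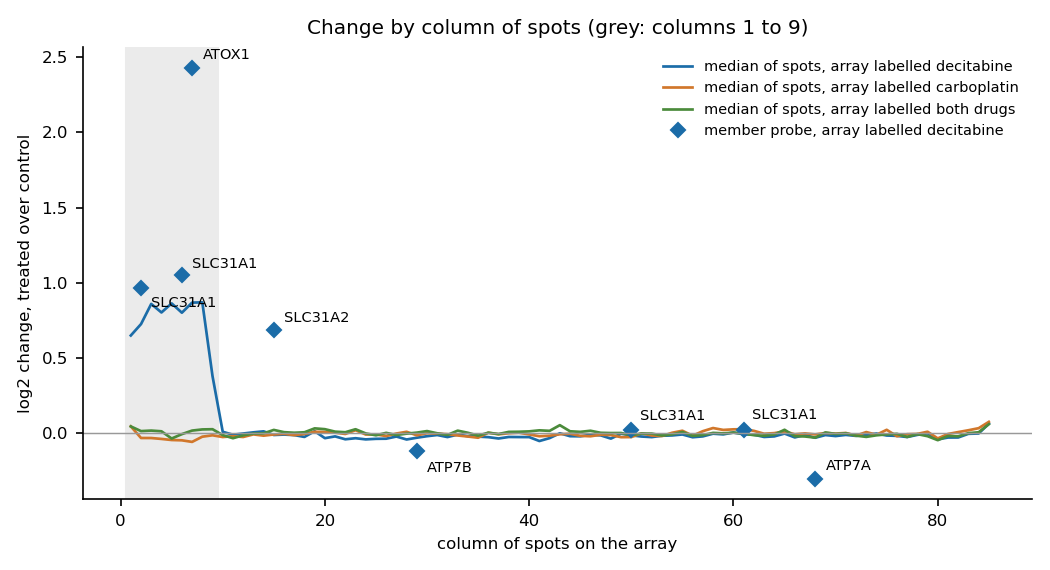
Median log2 change of all gene spots in each of 85 columns of spots (lines, 1 per array), with the 8 probes of the 5 detected members on the decitabine-labelled array as diamonds. Columns 1 to 9 are shaded. The line of the decitabine-labelled array is raised there alone, the edge SLC31A1 probes lie just above it and ATOX1 lies at 2.43, while SLC31A2 lies at 0.68 outside it.

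ATP7A, the copper pump that is lost in Menkes disease, was lower in treated than in control cells on each array, without reaching 1.5-fold. Its probe on chromosome X lay in column 68 and gave log2 changes of −0.30, −0.30 and −0.50. The treated levels were 8.18, 7.72 and 7.48, and the control levels 8.49, 8.02 and 7.98. The control channels had an SD of 0.282 (n = 3), with the decitabine-labelled array 0.49 above the mean of the other 2. With the shared control its changes were 0.18, −0.28 and −0.52, so its direction on the decitabine-labelled array depends on the control used. Under 5 of the same 11 settings, which are not independent, it was at least 1.5-fold lower with both drugs. Its values there ran from −0.70 to −0.42.

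ATP7B, the pump that is lost in Wilson disease, was below its control mainly on the carboplatin-labelled array. Its treated levels were 11.55, 11.08 and 11.43 and its control levels 11.67, 11.48 and 11.54 (SD 0.0973, n = 3). The treated level of the carboplatin-labelled array lay below all 3 controls and below the other 2 treated levels. The log2 changes were −0.12, −0.40 and −0.11, and 0.04, −0.43 and −0.08 with the shared control. Of 13591 genes on that array, 7.64% lay lower. The change with both drugs was 0.29 above that on the carboplatin-labelled array and 0.41 above what the single-drug changes add up to.

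SLC22A2 and SLC22A3, the organic cation carriers, gave almost no signal. SLC22A2 read 89.3, 76.8 and 80.7 units in control cells against local backgrounds of 73, 76 and 62, and 60.7, 57.8 and 58.6 units in treated cells against 49.5, 47.5 and 50, so it was well above background in none of its 6 channels. The SLC22A3 probe A_23_P19733 was likewise above background in none of 6. The SLC22A3 probe A_32_P309404 was so in 1 of 6, the treated channel of the both-drug array, with 75.2 units against a background of 52. Its measured ratio there was 1.09-fold, but the control channel was not well above background, so the size of the change is not known. Other values of these genes are given only where the processing settings are compared. Their control channels were not well above background on any array. SLC22A2 was thus not detectable on any of the 3 arrays.

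**Figure D4:**
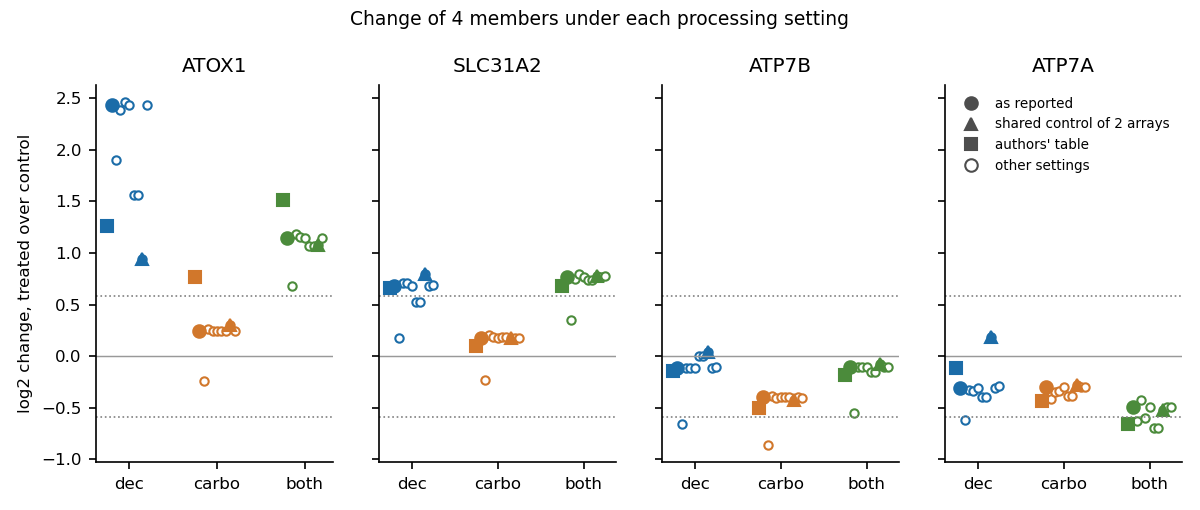
Log2 change (treated over control) of ATOX1, SLC31A2, ATP7B and ATP7A under each processing setting, for the decitabine-labelled (dec), carboplatin-labelled (carbo) and both-drug (both) arrays. Filled circles are the values as reported, triangles use the shared control, squares are the authors' deposited values, and dotted lines mark 1.5-fold. ATOX1 stays above the upper line on the decitabine-labelled and both-drug arrays, and ATP7A crosses 0 on the decitabine-labelled array with the shared control.

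The other genes of copper and platinum transport were taken as 5 lists of 63 genes, of which 62 were measured, SLC22A18 not being matched. At least 1.5-fold higher were 7 of 62 (11.3%), 0 and 7, against 10.6, 2.76 and 7.47% of all genes, and lower were 2 (3.23%), 1 and 2, against 4.67, 1.49 and 5.93%. Without columns 1 to 9, 4 of 58 were higher and 2 lower on the decitabine-labelled array, against 5.08 and 4.9% of all genes. The median log2 changes of the 62 genes were 0.08, 0.03 and −0.00, beside 0.01, −0.01 and 0.00 over all genes.

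Copper delivery in the cytosol and mitochondria was read by 8 genes, all well above background. SCO1, which loads copper into cytochrome c oxidase, was higher on the decitabine-labelled array (2.13), but its probe lay in columns 1 to 9 and gave 0.04 and 0.50 on the other 2 arrays. With the shared control SCO1 gave 0.64, 0.07 and 0.46. CCS, the chaperone that carries copper to superoxide dismutase, gave 0.34, 0.40 and 0.64 and was past 1.5-fold with both drugs only. SOD1 itself gave −0.29, −0.26 and −0.16.

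Of 14 genes of copper handling, AP1S1 and STEAP2 passed 1.5-fold. AP1S1, a subunit of the adaptor complex that sorts cargo between the Golgi and endosomes, gave 0.89, 0.38 and 0.72 by its brightest probe and 0.82, 0.42 and 0.65 by its other probe. STEAP2, a metal reductase, gave 0.55, −0.41 and 0.70, which put it past 1.5-fold with both drugs. The zinc and copper sensor MTF1 gave 0.15, 0.09 and −0.03.

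Of 15 copper enzymes, HEPH was the lowest. HEPH, the copper ferroxidase of enterocytes, gave −1.40, 0.19 and −1.13 by its brightest probe and −0.84, 0.07 and −0.74 by the other, so both were lower on the decitabine-labelled and both-drug arrays and near the control level on the carboplatin-labelled array. Among the lysyl oxidases, which use copper to crosslink collagen, the members did not move together. LOXL2, with 10 spots of which some lay in the edge columns, gave −0.90, −0.48 and −0.93. LOXL3 gave 1.39, −0.21 and −0.24 by an edge probe but −0.37, −0.13 and −0.60 by its other probe. The edge probe gave −0.05, −0.17 and −0.28 with the shared control. LOXL4, by its brightest probe, was well above background in treated cells only, on every array. The measured ratios were 1.67-fold, 1.29-fold and 2.27-fold, but the control was not well above background, so the sizes are not known. With the shared control LOXL4 gave log2 changes of 0.61, 0.36 and 1.19 by this probe. Its second probe was well above background only in the treated channel of the both-drug array, so it gives no size either. LOXL1 gave 0.66, 0.04 and 0.74. AOC3, a copper amine oxidase read by an edge probe, gave 0.81, −0.59 and −0.11 and was the 1 list gene that passed 1.5-fold on the carboplatin-labelled array. With the shared control AOC3 gave −0.26, −0.57 and −0.13, short of 1.5-fold on every array.

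Among 17 further SLC22 and SLC47 carriers, SLC22A4, a carrier of carnitine and ergothioneine, passed 1.5-fold. It gave 1.56, −0.29 and 0.66, again from a probe in columns 1 to 9, and 0.47, −0.24 and 0.61 with the shared control. The remaining 16 stayed within 1.5-fold on every array, and 11 or 12 of the 17 were above background in the control channel. Of 8 genes linked to platinum transport by other routes, TMEM205 was past 1.5-fold with both drugs (0.58, 0.17 and 0.84). LRRC8A, the required subunit of the volume-regulated anion channel, gave 0.32, 0.35 and 0.57, and LRRC8D, a partner subunit, gave 0.09, 0.02 and 0.20. ABCC2, an export pump for drug conjugates, gave −0.32, −0.28 and −0.39.

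**Figure D5:**
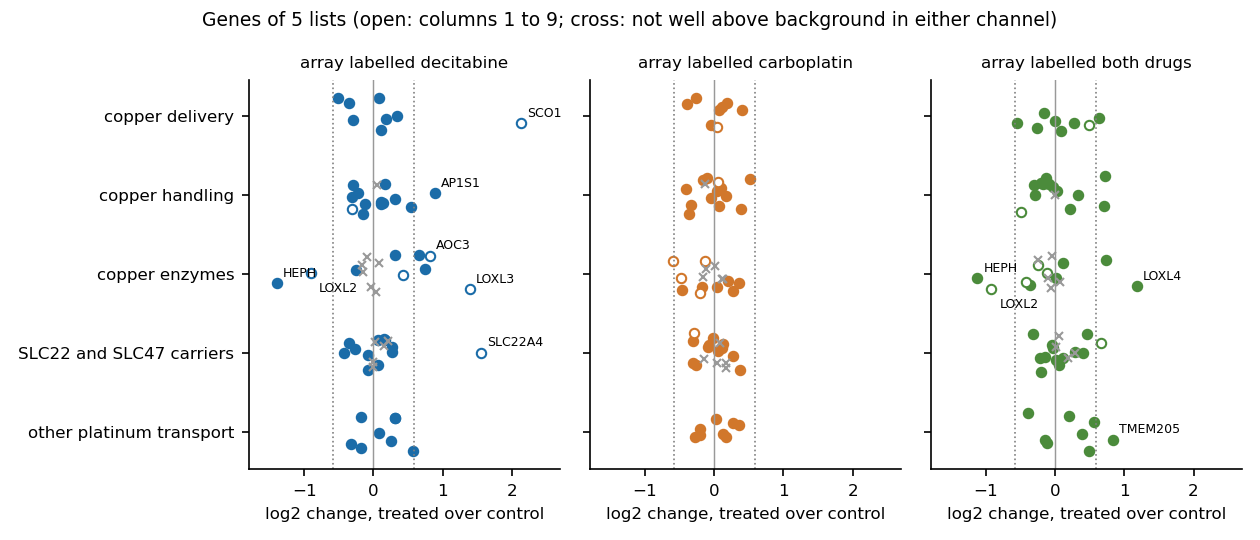
Log2 change (treated over control) of the 62 measured genes of 5 lists, 1 panel per array, each gene read by its brightest probe. Open points have spots in columns 1 to 9, crosses are well above background in neither channel, and dotted lines mark 1.5-fold. The points farthest right on the decitabine-labelled array, SCO1, SLC22A4 and LOXL3, are open, and HEPH is the farthest left on the decitabine-labelled and both-drug arrays.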

How the data were processed

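The authors hybridized RNA to 3 Agilent Whole Human Genome 4x44K arrays and deposited scanner intensities, read by Feature Extraction 9.5.3.1 per the file headers (8.5.1.1 by the submitters' processing notes, which also name limma and R 3.0.2), with probe positions on GRCh37. The log ratio in the deposited scanner files is log10 of red over green processed signal. The authors also deposited a table of log2 ratios of unstated direction. It follows treated over control (r = 0.867, 0.838 and 0.936 across 40993 probes with the values here), and came closer to ratios against the mean control of all 3 arrays (0.953, 0.963 and 0.981). Its scale was log2, and its background step is not given in the sources used here.

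Mean intensities were corrected by normexp (offset 50) and loess normalized within each array with limma 3.58.1 in R 4.3.3, leaving out control spots and 276, 111 and 89 outlier spots. Channel levels came from Aquantile scaling. Repeat spots were averaged, probes were matched to RefSeq genes (29381 of 41000), and the brightest probe stood for a gene. Arrays were grouped by their labels. Background correction and loess were tested on simulated arrays with known changes but no dim columns, so the edge effect was not covered. Scaling between arrays, the shared control and gene matching were not simulated. The shared control was the mean control level of the carboplatin-labelled and both-drug arrays. The number of arrays limits the precision, and SDs of repeated spots cover technical error within an array. Further tables used Python 3.11.15 and pandas 2.3.3. Named were all members, up to 4 genes per list past 1.5-fold with a channel above background, and the 3 genes most like a member past 1.5-fold, left out for ATOX1, whose pattern rests on an edge probe. SOD1, LOXL1, AOC3, MTF1, LRRC8A, LRRC8D, ABCC2 and the named markers were chosen after their values were seen. The members, lists and tests were chosen with earlier results of these data known. Other settings tried were 11 chosen from the labels and methods, and the shared control, chosen after seeing the data.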

Additional observations from a re-analysis of the deposited data

How the results depend on the processing

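No paired analysis was possible because each treatment had 1 array. SLC31A2 and ATOX1 passed 1.5-fold on the decitabine-labelled array as reported. There 1 member did with the processed signals, median centring, the scanner log ratio and at 2-fold (ATOX1), and 1 without columns 1 to 9 (SLC31A2). On the both-drug array 1 did with median centring and at 2-fold (ATOX1), and 1 without columns 1 to 9 (SLC31A2). On the carboplatin-labelled array 1 did in the authors' table (ATOX1, 0.77) and 1 with an offset of 16 (SLC22A2, 0.64), and 2 did with median centring (SLC22A2, 0.87, and SLC22A3, 0.72), both not well above background there. Members at least 1.5-fold lower with median centring numbered 2 (ATP7A and ATP7B), 1 (ATP7B) and 1 (ATP7A), and ATP7A was the 1 on the both-drug array with the processed signals, scanner log ratio, an offset of 16 and the authors' table. Median centring left genes above background at a median of −0.40, −0.36 and −0.34. Relative to that median SLC31A2 stood at 0.58, 0.12 and 0.69 and ATOX1 at 2.30, 0.11 and 1.01, although their own values on the carboplatin-labelled array turned to −0.23 and −0.24. The median over member probes became 0.36, −0.24 and −0.29, and 0.35 on the decitabine-labelled array with probes above background alone.

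List genes past 1.5-fold up on the decitabine-labelled array numbered 18 with the processed signals, 4 in the authors' table, 4 without columns 1 to 9 and 3 at 2-fold. Of all genes 5.08% were higher there without columns 1 to 9 and 6.29% at 2-fold. Lower list genes there numbered 4, 15, 4 and 1 with the processed signals, median centring, the scanner log ratio and at 2-fold, the last against 1.05% of all genes. On the carboplatin-labelled array 3, 5 and 3 were higher with the processed signals, median centring and the scanner log ratio. There 4, 2, 13, 4 and 2 were lower with the processed signals, an offset of 16, median centring, the scanner log ratio and the authors' table, and 0 with unsubtracted median signals, without columns 1 to 9, at 2-fold and with the shared control. Of all genes 1.43% were lower there without columns 1 to 9, 0.0322% at 2-fold and 1.62% with the shared control. On the both-drug array 11, 3, 11 and 1 were higher, and 6, 13, 6 and 1 lower, with the processed signals, median centring, the scanner log ratio and at 2-fold. At 2-fold 2.56% of all genes were higher and 1.38% lower there. For the settings that change the signals or their scaling no share of all genes was taken. Those counts, like the member counts above, therefore cannot set the lists or members apart from other genes.

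The edge SLC31A1 probe A_23_P253405 turned on the decitabine-labelled array to −0.34 both with the processed signals and with the scanner's ratio, and to −0.0068 with the shared control. The difference of ATOX1 between both drugs and decitabine turned to 0.25 in the authors' table and 0.14 with the shared control. Without columns 1 to 9 the median of both drugs minus carboplatin over detected members was 0.15 in place of 0.29, the median control SD over member probes 0.0951 in place of 0.205, and the pooled SD of repeated spots on the decitabine-labelled array 0.0776. Keeping outlier spots moved no count, and the median over probes kept each count within 1.5 times, with 5 list genes higher on the decitabine-labelled array and 8 higher and 3 lower with both drugs. The causes were not tested.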
